A study of Homo sapiens with 4 samples.

Results

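Called regions of the transcriptional repressor BCL6 lay in dense groups in 3 genes, TOX, NEK7 and ZNF608. The genes were chosen by their number of called regions, a group of at least 12 in each, so their counts and close spacing are given as a description and not as a finding. They are 3 of the 19974 that code for proteins on chromosomes 1 to 22 and X. A peak belonged to a gene when its summit, the position of highest coverage, lay in the gene or within 50 kb of either annotated end.

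The data are CUT&RUN libraries of the diffuse large B-cell lymphoma line SUDHL5, made in a study of a bivalent glue between lysine acetyltransferases and BCL6. In CUT&RUN, an antibody tethers a nuclease to the chromatin its antigen occupies, and the DNA cut loose there is sequenced. The group used here is BCL6, with 2 biological replicates of nuclei incubated with the BCL6 antibody D65C10; its control is normal rabbit IgG, with 2 replicates whose values were not analysed here. The labels of all 4 samples name the same cell line and growth medium and no compound. The 2 lists hold 5237 and 3536 peaks, called by the authors in each replicate separately, and read totals are unknown.

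BCL6 is a BTB zinc finger protein that B cells need to form germinal centres, where it recruits co-repressors such as NCOR, SMRT and BCOR to silence its targets. It is retained in many lymphomas of germinal centre origin. TOX encodes a nuclear protein with an HMG-box DNA-binding domain, best known from T cell development and T cell exhaustion. NEK7 encodes a serine/threonine kinase of the NIMA-related family that acts in mitotic spindle assembly and in activation of the NLRP3 inflammasome. ZNF608 encodes a zinc finger protein related to ZNF609, and its function is less well described.

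The genes lie on different chromosomes, in GRCh38 (hg38) coordinates. TOX spans chr8:58805412-59119147, NEK7 chr1:198156998-198322420 and ZNF608 chr5:124636915-124748824. Exons, introns and untranslated regions were not separated, because gene extents alone were used. No other protein-coding gene overlaps any of the 3 windows. Each window holds non-coding entries, such as TOX-DT 63 bp beyond the upper end of TOX and the pseudogene PRR13P1 inside NEK7, and no region summit lay in any of them. ZNF608 is on the minus strand in RefSeq. TOX is known to be transcribed from the minus strand too and NEK7 from the plus strand, so starts were taken as the upper end of TOX and ZNF608 and the lower end of NEK7.

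Both lists together gave 21 merged regions at TOX, 13 at NEK7 and 19 at ZNF608, where a region joins peaks that share at least 1 bp. None of the 21 TOX regions was held by both replicates, against 3 of 13 at NEK7 and 4 of 19 at ZNF608. In shares these are 0% at TOX (Wilson 95% interval up to 15.5%), 23.1% at NEK7 (8.18 to 50.3%) and 21.1% at ZNF608 (8.51 to 43.3%). Over all 7371 merged regions on these chromosomes 17.8% were held by both. The intervals of NEK7 and ZNF608 hold that share and the interval of TOX lies below it. Replicate 2 had only 3 peaks at TOX, so at most 3 regions there could have been shared. This bounds the share at TOX wherever the peaks lie, so its lower interval is not read as a difference in overlap. Regions of 1 gene share their libraries and their chromatin, so the intervals cover counting error only and no test was made.

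**Figure D1:**
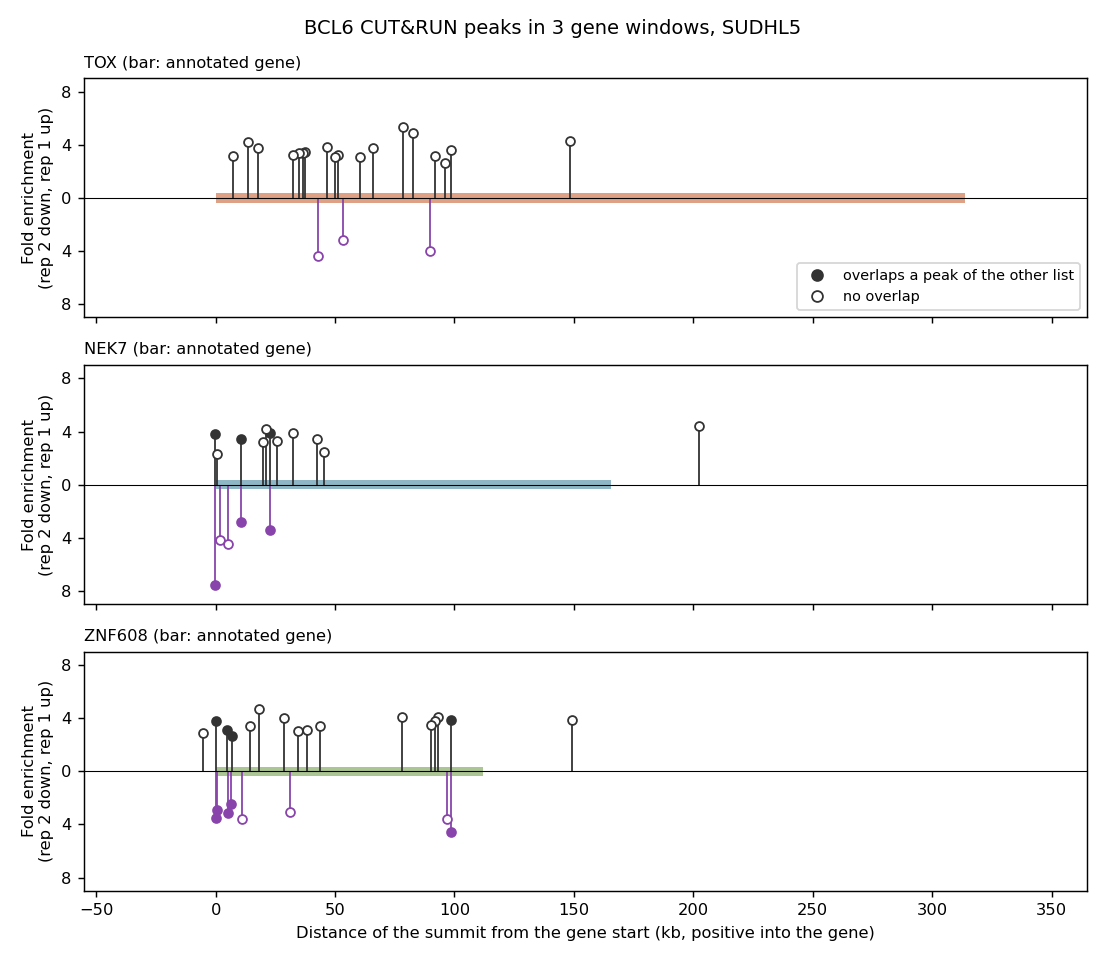
Fold enrichment of each peak (vertical axis, replicate 1 upward and replicate 2 downward) against the distance of its summit from the gene start (horizontal axis, kb), 1 panel per gene. Filled points overlap a peak of the other list: TOX has 0, while NEK7 has 3 in each list and ZNF608 has 4 in replicate 1 and 5 in replicate 2.

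At the upper end of ZNF608, peaks of both replicates met, and the bases before its start are shown because the replicate 1 peak there covers them all. They are the 250 bases upstream of the start from RefSeq (GRCh38.p14, chr5:124748825-124749074, minus strand), printed 5′ to 3′ in lower case.
ZNF608 upstream: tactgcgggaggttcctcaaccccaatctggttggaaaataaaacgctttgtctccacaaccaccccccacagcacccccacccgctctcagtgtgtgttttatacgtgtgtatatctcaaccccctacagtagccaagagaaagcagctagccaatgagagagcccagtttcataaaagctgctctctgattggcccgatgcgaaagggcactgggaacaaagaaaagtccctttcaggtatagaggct
The replicate 2 peak nearest to them ends 31 bp short of their lower end, inside the gene. GC content is 50.4% in this window, against a median of 58% over 35116 such windows. The letters TTCCTAGAA, close to the sequence BCL6 is known to bind, were searched on both strands along with the looser TTCCNNGAA and TTCNNNGAA, each of which contains the matches of the one before. None of these was found in the 250 bases, so nothing is in capitals. They occur in 0.313%, 3.86% and 6.57% of all windows. The summits of these peaks lie inside the gene in both replicates, so the sequence under them was not searched. TOX and NEK7 have no entry in the table used.

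All 21 TOX regions lay inside the gene, and none lay at its start. The summit nearest to the start was 7.27 kb into the gene, and from there 20 regions followed each other to 98.8 kb, a stretch of 91.5 kb. After a gap of 49.5 kb came a single further region at 148 kb, and no other peak summit of either list was called in the remaining length or in the flanks. All 21 summits were thus in the first 50% of the gene's length. Replicate 1 contributed 18 of the regions and replicate 2 contributed 3.

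The TOX peaks had fold enrichments close to the median of each list and, in replicate 1, a smaller median width than that list. Their fold enrichment, the authors' ratio of summit pileup over local background with 1 added to each, ran from 2.67 to 5.37 with a median of 3.43 in replicate 1, against 3.55 over that whole list. In replicate 2 the 3 peaks had 3.97, 3.20 and 4.39, against a median of 3.74 over that whole list. The median width was 352.5 bp in replicate 1 and 431 bp in replicate 2, against 454 and 435 bp over the whole lists. Of the 18 replicate 1 peaks, 4 reached a −log10 q of 5, where 34.8% of that whole list did. None of the 3 replicate 2 peaks did, where 32.6% of that whole list did.

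The strongest TOX peak of replicate 1 by fold enrichment was at chr8:59040588-59040966, 78.3 kb from the start, with a fold enrichment of 5.37 and a −log10 q of 8.31. Its summit pileup, the number of fragments over the summit, was 24 (exact Poisson 95% interval 15.4 to 35.7) over a local background of 3.66. The nearest replicate 2 summit was 11.7 kb away. The strongest of replicate 2 was at chr8:59076145-59076536, with a fold enrichment of 4.39, a pileup of 15 (8.40 to 24.7) and a background of 2.64. The nearest replicate 1 summit to it was 3.95 kb away. Neither peak had a counterpart, and both intervals are wide.

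Pileups at TOX ran from 13 to 26 in replicate 1, with a median of 20.5 against 23 over that whole list. In replicate 2 they were 13, 18 and 15, against a median of 21 over that whole list. No TOX pileup exceeded 26, while NEK7 reached 63 and 61 and ZNF608 reached 51 and 44. Peaks elsewhere in the replicate 1 list with pileups of 13 to 26 had a partner in replicate 2 in 446 of 2935 cases (15.2%), against 0 of 18 at TOX. For pileups of 13 to 18 in replicate 2 the share elsewhere was 220 of 1055 (20.9%), against 0 of 3 at TOX. Over all pileups, 25.7% of the replicate 1 peaks and 38.4% of the replicate 2 peaks had a partner. The intervals at TOX reach 17.6% and 56.1%, so with these numbers neither difference exceeds counting error.

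At TOX the replicate 2 summits lay between replicate 1 summits without meeting them. They were 1.73, 2.46 and 3.95 kb from the nearest replicate 1 summit, and all 3 lay within the same 91.5 kb stretch. Of the 18 replicate 1 summits, 11 were within 10 kb of a replicate 2 summit, and the farthest was 58.3 kb away. Counting summits within 1 kb as shared still gave no shared region.

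NEK7 differed from TOX in having its strongest region at the gene start. The region at chr1:198156101-198157087 spans the annotated start, and its summits were 124 bp outside the gene in replicate 1 and 97 bp outside in replicate 2, 27 bp from each other. Summit pileups were 63 (exact Poisson 95% interval 48.4 to 80.6) in replicate 1 and 61 (46.7 to 78.4) in replicate 2. As read totals are unknown, pileups were not scaled between the replicates. The peak of replicate 1 had a fold enrichment of 3.83 with a background of 15.7, and that of replicate 2 had 7.57 with a background of 7.19. Their −log10 q, 14.5 and 29.8, were the highest of each list in the 3 windows.

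The other regions at NEK7 ran on from the start into the gene. In all, 12 regions filled 45.6 kb, and the last of them was 45.5 kb from the start. A thirteenth, in replicate 1 alone, lay 157 kb farther on, in the flank beyond the other end, with a fold enrichment of 4.43 and a pileup of 15. All 11 summits inside the gene were in the first 50% of its length. Apart from the region at the start, 2 were shared.

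The first of these was at chr1:198167479-198168550, 10.8 kb into the gene, with fold enrichments of 3.43 in replicate 1 and 2.81 in replicate 2. Its pileups were 26 and 22, and the summits were 158 bp apart. The other was at chr1:198179492-198179893, 22.6 kb into the gene, with fold enrichments of 3.92 and 3.45, pileups of 26 and 17, and summits 151 bp apart. Both shared regions inside NEK7 thus rested on far fewer fragments than the one at the start.

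Close to the NEK7 start the lists also differed. Replicate 1 alone had a peak 452 bp into the gene, with a fold enrichment of 2.32 on a pileup of 31 and a background of 12.8. Replicate 2 alone had a peak of 1455 bp width with its summit 1.97 kb into the gene, with a fold enrichment of 4.16 and a pileup of 34, and another at 5.19 kb with 4.50 and a pileup of 21. Beyond 22.8 kb all further regions came from replicate 1 only.

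ZNF608 had its regions in 2 runs with a gap of 34.7 kb between them. The first run held 12 regions over 48.8 kb, from 5.30 kb upstream of the start to 43.5 kb into the gene, and 3 of them were shared. The second held 6 regions over 20.4 kb, between 78.2 and 98.7 kb from the start, with 1 shared. A single region of replicate 1 lay beyond the 3′ end, 149 kb from the start. Of the 17 summits inside the gene, 11 were in the first 50% of its length.

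At the start of ZNF608 the region chr5:124747777-124749413 held 1 peak of replicate 1, which was 1637 bp wide, and 2 peaks of replicate 2. The replicate 1 summit was 173 bp into the gene, with a fold enrichment of 3.78, a pileup of 51 (exact Poisson 95% interval 38.0 to 67.1) and a background of 12.8. The nearer replicate 2 summit was 44 bp from it, with a fold enrichment of 3.50, a pileup of 44 (32.0 to 59.1) and a background of 11.9. The other replicate 2 peak, 657 bp into the gene, had a fold enrichment of 2.90 and a pileup of 25. The backgrounds of 12.8 and 11.9 are the highest of the ZNF608 window in each list, as the 15.7 at the NEK7 start is the highest of its window in replicate 1.

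The shared region of the second run was at chr5:124649941-124650870, 98.7 kb from the start. It had fold enrichments of 3.88 in replicate 1 and 4.54 in replicate 2, with summits 41 bp apart. Its pileups, 41 and 44, were close to those at the gene start, and its −log10 q was 9.22 in replicate 1 and 12.3 in replicate 2. The 12.3 is the highest of replicate 2 at ZNF608, and the highest of replicate 1, 11.3, is at the start.

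Shared regions near the ZNF608 start were weaker. One, with its replicate 1 summit 4.66 kb into the gene, had fold enrichments of 3.14 in replicate 1 and 3.17 in replicate 2 and pileups of 33 and 23. Another, at 6.87 kb, had 2.66 and 2.44 and pileups of 26 and 25. The strongest peak of replicate 1 by fold enrichment, 4.70 at chr5:124730286-124730979, 18.1 kb into the gene, was not shared. Its pileup was 22, below the 26 to 51 of the 4 shared replicate 1 peaks of this gene.

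Spacing was alike in the 3 genes. The median distance between neighbouring region summits was 4.39 kb at TOX, 3.23 kb at NEK7 and 3.91 kb at ZNF608, against 50.1 kb between neighbours over all regions. Neighbours less than 10 kb apart made up 17 of 20 gaps at TOX, 10 of 12 at NEK7 and 14 of 18 at ZNF608, against 31.0% of all gaps. The closest neighbours were 729 bp apart at TOX, 549 bp at NEK7 and 1202 bp at ZNF608. The widest gaps were 49.5, 157 and 50.7 kb, each in front of a lone region. Close spacing follows from how the genes were picked and is no evidence of its own.

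**Figure D2:**
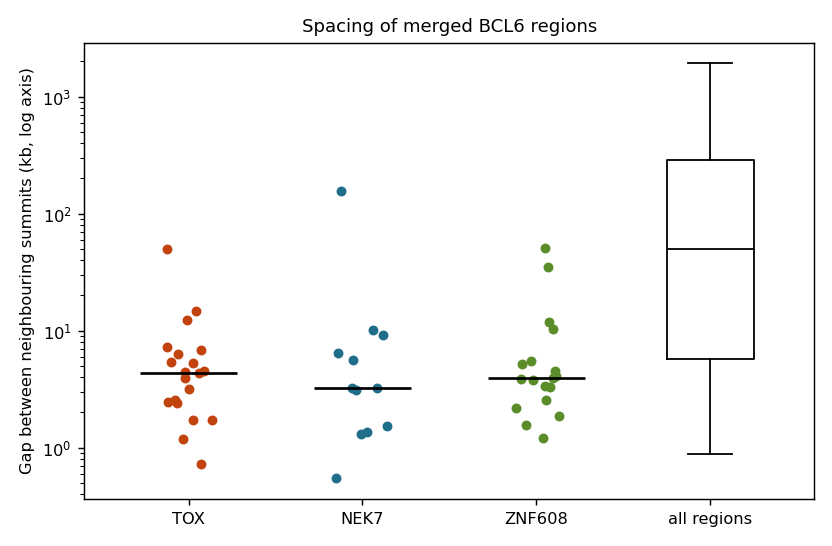
Distance between neighbouring summits of merged regions (vertical axis, kb, log scale) at TOX, NEK7 and ZNF608, with a line at the median, and over all regions, where the box holds the middle 50% with its median and whiskers reach the 5th and 95th percentile. The medians of the 3 genes lie between 3.23 and 4.39 kb, against 50.1 kb for all regions.

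In single lists the picture was uneven. Replicate 1 alone gave medians of 4.52 kb at TOX, 4.87 kb at NEK7 and 5.47 kb at ZNF608. Replicate 2 alone gave 4.35 kb at NEK7 and 4.34 kb at ZNF608, but its 3 TOX summits were 10.8 and 36.5 kb apart. A dense group at TOX was therefore present in replicate 1 and not in replicate 2 as called. At NEK7 and ZNF608 both lists had neighbours a few kb apart, but replicate 2 held only 5 and 8 peaks there, fewer than 12. Its widest gap at ZNF608 was 65.8 kb. Replicate 1 held 11 peaks at NEK7, so neither list alone reached 12 at that gene.

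The lists contributed unequally. Replicate 2 gave 3 of 21 peaks at TOX (14.3%, Wilson 95% interval 4.98 to 34.6%), 5 of 16 at NEK7 (31.25%, 14.2 to 55.6%) and 8 of 24 at ZNF608 (33.3%, 18.0 to 53.3%). Over all peaks on these chromosomes it gave 40.3%. The interval at TOX lies below this share and those at NEK7 and ZNF608 hold it. Peaks of the same gene share their libraries and their chromatin, so these intervals cover counting error only and no test was made. The 40.3% is taken over peaks of all pileups and was not matched to the pileups at TOX. The lower interval at TOX is therefore given as a description only.

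Per list, 3 of 11 replicate 1 peaks at NEK7 and 4 of 16 at ZNF608 had a partner, against 25.7% of all 5230 replicate 1 peaks on these chromosomes. In replicate 2 these were 3 of 5 at NEK7 (60%, 23.1 to 88.2%) and 5 of 8 at ZNF608 (62.5%, 30.6 to 86.3%), against 38.4% of 3529. For NEK7 and ZNF608 each interval holds the share of the whole list. The 0 of 18 at TOX in replicate 1 has an interval up to 17.6%, which lies below 25.7% but holds the 15.2% of peaks elsewhere with like pileups. With 3 replicate 2 peaks at TOX, few of the 18 could have had a partner.

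Local background at the summits was lowest at TOX. Its median was 4.87 at TOX, 5.90 at NEK7 and 5.31 at ZNF608 in replicate 1, against 5.90 over the whole list. In replicate 2 it was 2.64 at TOX, 7.19 at NEK7 and 8.44 at ZNF608, against 4.63. The ranges overlapped in replicate 1: 2.09 to 7.06 at TOX, 2.61 to 15.7 at NEK7 and 2.95 to 12.8 at ZNF608. In replicate 2 they were 2.53 to 4.94 at TOX, 3.89 to 7.42 at NEK7 and 5.13 to 11.9 at ZNF608, so that TOX and ZNF608 did not overlap there. A peak over a low background is called with fewer fragments, so background and pileup are tied.

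Pooled over the 3 windows, shared peaks had higher median pileups and backgrounds than the others, although TOX adds unshared peaks alone. The 7 shared peaks of replicate 1 had a median pileup of 33 over a median background of 9.83, against 21 and 4.94 for the 38 unshared ones. In replicate 2 these were 25 and 7.58 for 8 shared peaks, against 19.5 and 5.03 for 8 unshared ones. Within single genes the pileups went the same way at ZNF608 in both lists and at NEK7 in replicate 1. At NEK7 in replicate 2 they went the other way, with a median pileup of 22 for 3 shared peaks against 27.5 for 2 unshared ones. Fold enrichment did not go the same way in both lists: its median was 3.78 for shared peaks against 3.45 in replicate 1, and 3.31 against 3.78 in replicate 2. Part of the backgrounds fell, within 0.002, on whole multiples of a fixed step, 0.983 in replicate 1 and 0.742 in replicate 2. In replicate 1 they did so for 7 of 18 peaks at TOX, 4 of 11 at NEK7 and 5 of 16 at ZNF608, against 42.5% of that list. In replicate 2 it was 0 of 3, 1 of 5 and 5 of 8, against 44.9%.

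**Figure D3:**
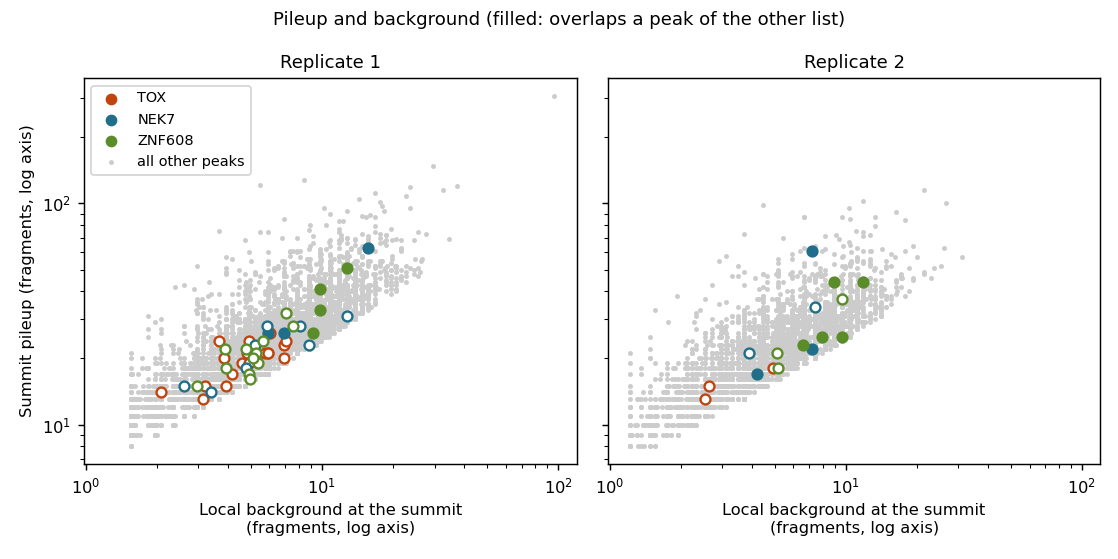
Summit pileup (vertical axis, fragments, log scale) against local background (horizontal axis, fragments, log scale) for every peak, replicate 1 left and replicate 2 right, with peaks of the 3 genes in colour and filled where they overlap a peak of the other list. The TOX points stay at pileups of 13 to 26, and filled points of NEK7 and ZNF608 reach 63.

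Genes as rich in regions were rare. With the same window, 78 of 19974 protein-coding genes (0.391%) held 12 or more merged regions, 17 of them exactly 12, and 16 genes held 11. The count depends on the lists and the window: it was 29 without replicate 1, 39 without replicate 2 and 21 in gene bodies alone. By count TOX had rank 13, ZNF608 rank 20 and NEK7 rank 54, tied genes taking the lowest number. Per 100 kb of window the values were 5.08 regions at TOX, 4.90 at NEK7 and 8.97 at ZNF608, against a median of 11.1 over the 78 genes, many of which are short histone genes. The most regions, 32 each, were at FOXP1, a forkhead factor, and at LPP, followed by AUTS2 with 26 and by VAV3 and the histone gene H4C5 with 25 each. Of these regions 7 were shared at FOXP1, 8 at LPP, 5 at AUTS2, 4 at VAV3 and 13 at H4C5.

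Since neighbouring genes can hold the same regions, windows that overlap were joined, which gave 40 loci. The share of regions held by both lists had a median of 20.5% over these loci. TOX was 1 of 6 loci without any shared region; the others were HECW2 with 17 regions, ZCCHC7 with 16, SOX5 with 13 and AKAP13 and EFNA5 with 12 each. TOX had the most regions among these 6.

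**Figure D4:**
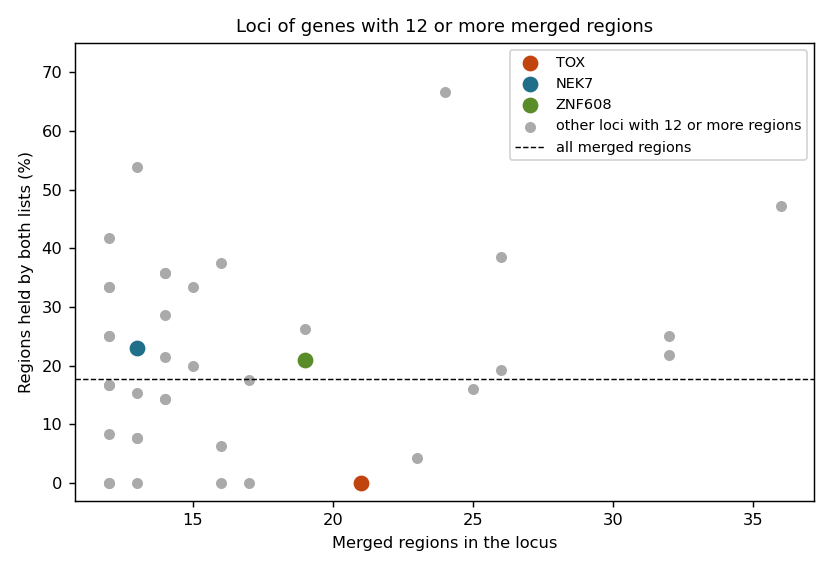
Share of merged regions held by both lists (vertical axis, %) against the number of merged regions (horizontal axis) for the 40 loci of genes with 12 or more regions, with a dashed line at the 17.8% of all regions. TOX lies at 0% with 21 regions, and NEK7 at 23.1% and ZNF608 at 21.1% lie close to the median locus of 20.5%.

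Counted along the genome and without regard to genes, 14 stretches had 12 or more region summits within 50 kb, a count chosen after the values were seen. TOX, NEK7 and ZNF608 each had one, with 12 summits at most in 50 kb. The highest count was 19, on chromosome 3 between 187899492 and 188019517. TOX was the 1 stretch of 14 without a shared region, with 0 of 16 across its overlapping 50 kb spans. EBF1 had 1 of 12, a stretch on chromosome 14 had 2 of 16, and NEK7 and ZNF608 each had 3 of 12. Over all merged regions 17.8% were shared. Replicate 2 had only 3 peaks at TOX, which bounds its count, so this is given as a description only.

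Genes related to the 3 were counted next. The same window held no region at TOX2, TOX3 or TOX4, the other members of the TOX family of HMG-box proteins. Among the NIMA-related kinases it held 4 regions at NEK8, 3 each at NEK1 and NEK6, 2 each at NEK9 and NEK11, 1 each at NEK3 and NEK5, and none at NEK2, NEK4 or NEK10. The windows of NEK3 and NEK5 overlap, so their counts may be of the same region. NEK8, which acts at the primary cilium, had the 1 shared region among these 14 relatives. ZNF609, the relative of ZNF608, had 1 region, in replicate 2. Of the 14 relatives 0 had 12 or more regions, where 0.391% of all protein-coding genes did, and 6 had none, where 62.8% of all did. A group of 14 genes without a dense one is what these shares give, so this says nothing particular about the relatives.

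All 21 summits inside TOX and all 11 inside NEK7 were in the first 50% of the gene's length, and 11 of 17 inside ZNF608 were. In other genes of at least 100 kb with a known strand, 1394 of 2042 such summits were (68.3%), so the share at ZNF608 is close to that of other long genes. Summits at the gene start itself were seen at NEK7 and ZNF608, where they were shared and no peak of the window had a higher pileup, and not at TOX. The peaks covered little of each window: merged regions summed to 8.68 kb at TOX (2.10% of the window), 8.51 kb at NEK7 (3.21%) and 11.9 kb at ZNF608 (5.63%). The median region was 379 bp wide at TOX, 525 bp at NEK7 and 558 bp at ZNF608.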

How the data were processed

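BCL6 CUT&RUN of SUDHL5 nuclei was deposited as 1 peak list per biological replicate, and groups and replicate numbers come from the sample titles. The submitters' processing notes name build hg38 and, with no role or order, the tools MACS2, Bowtie2, cutadapt, FastQC, Picard, SAMtools, deepTools and bedtools. Versions, settings and the control of the peak calling are not given in the sources used. The authors' deposited values per peak are a fold enrichment (a ratio), −log10 p, −log10 q, a summit position and a score. The deposited score is the −log10 q multiplied by 10 and cut to whole numbers in all 8773 peaks, and was not used. The smallest deposited −log10 q is 1.31, a q of 0.05.

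From these, whole-number pileups and local backgrounds were solved from fold enrichment, taken as (pileup + 1) / (background + 1), and the Poisson p, with a match within 0.001 for all 5230 and 3529 peaks on chromosomes 1 to 22 and X. The solver and the merging were tested on simulated data. Genes came from RefSeq GRCh38.p14. Python 3.11.15, scipy 1.17.1 and pandas 2.3.3 were used. No test was made, since peaks of 1 gene are not replicates. The named genes are the 3 genes, their 14 relatives, the 5 genes richest in regions and any gene overlapping a window. The 3 genes and the lists were chosen with earlier results of these data known. Alternatives were other windows, thresholds, overlap rules and each list alone.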

Additional observations from a re-analysis of the deposited data

How the results depend on the processing

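Of 94 values under alternatives, 67 stayed within the spread set for them (1.5 times for counts, the Wilson interval for shares, 1 SD between lists for medians) and 27 moved. The 67 include outcomes fixed in advance. Leaving out 1 list shifts the mean of both background medians by less than their SD. Asking for pileups recovered within 0.001 dropped no peak. Overlap at TOX was also 0 with summits within 1 kb counted as shared. The other overlap rules, flanks and thresholds could not have changed it: all its regions lie inside the gene, no replicate 2 peak there reaches a −log10 q of 5, and the reciprocal rule is stricter than 1 bp. With −log10 q of at least 5, merged regions numbered 4 at TOX, 5 at NEK7 and 5 at ZNF608, with median spacings of 33.1, 2.65 and 10.9 kb. With at least 10 they numbered 0, 1 and 2; the shared percentage was 100 at NEK7 and 0 at ZNF608, the spacing at ZNF608 was 98.5 kb, and the mean of the list medians of background was 11.5 at NEK7 and 10.8 at ZNF608. At TOX this threshold left no peak, so it gave no share, spacing or background. Fewer peaks enter these alternatives by construction. Reciprocal overlap of at least 50% lowered the shared percentage at ZNF608 to 5.26. Leaving out replicate 1 or replicate 2, regions ranged from 3 to 18 at TOX, 5 to 11 at NEK7 and 8 to 16 at ZNF608, and spacing from 4.52 to 23.6 kb at TOX, 4.35 to 4.87 kb at NEK7 and 4.34 to 5.47 kb at ZNF608. Without replicate 1, TOX has 3 regions and ZNF608 has 8, so both groups of 12 or more rest on that library. NEK7, with 5 and 11, reaches 12 in neither list alone. Genes with 12 or more regions numbered 78 in the main count, 21 in gene bodies alone and between 29 and 39 in single lists. Genes at least as dense as NEK7 numbered 149, and stretches of 50 kb with 12 or more regions, counted after seeing the data, numbered 14. No paired analysis was possible because the values analysed belong to 1 group, BCL6, and no result comes from a test between groups. Pileups of 13 to 26 limit what can be seen at TOX: a region missing from a list may still be bound. The cause of these differences was not tested.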
